A study of Mus musculus with 9 samples.

Results

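Etv5 and 9 further genes of the FGF-ERK pathway, namely Etv4, Spry1, Spry2, Spry4, Spred1, Dusp6, Fgfr1, Fgf1 and Fgf2, were followed through mouse heart tissue with and without the nuclear receptor COUP-TFII (gene Nr2f2). All probe sets assigned to 1 of these genes and to no other were taken, which gave 28 probe sets of 10 genes out of 34945 probe sets of 18193 genes. The set was built around Etv5 because its level in the mutant atrium lay above that of both control tissues. The set was thus selected on the log2 levels of Etv5 in the 3 groups, and those values are given as a description, without a test. The study asked how COUP-TFII bears on atrial identity, and RNA of 9 samples was hybridised to Affymetrix arrays that read the 3' ends of transcripts.

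All animals had a C57BL/6 background and an age of 2 months. The 3 groups held 3 biological replicates each. The first was right atria of Myh6-cre; COUP-TFIIflox/flox mutants. The second was right atria of COUP-TFIIflox/flox controls, and the third was ventricles of COUP-TFIIflox/flox controls. The floxed allele was thus shared by all groups. The Myh6 promoter drives Cre in cardiomyocytes, so that other cells of the mutant atrium keep the gene. Cre was carried by mutants only, and its own effect cannot be told apart from that of the deletion. Whether a sample came from 1 animal or a pool is not given in the sources used here, and p-values measure the spread between these samples.

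Fibroblast growth factors bind receptor tyrosine kinases and, through RAS and RAF, switch on the kinase ERK. ERK signalling raises transcription of a small set of genes in many tissues, among them the ETS factors Etv4 and Etv5 and a group of inhibitors that act back on the pathway, the Sprouty and Spred proteins and the ERK phosphatase Dusp6. In the heart, FGF signals act in growth of the myocardium, in the epicardium and after injury.

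Levels are log2 of the deposited intensity, as mean ± SD over 3 arrays. A level under 6.26 is called near background, since 95% of 126 probe sets of odorant, vomeronasal, taste and hair-keratin genes lay below it. Differences are log2 ratios ± SE, taken from one limma fit over the 9 arrays, and the adjusted p is limma's after Benjamini-Hochberg adjustment over all 34945 probe sets, with a threshold of 0.05. For a gene with several probe sets, the one with the highest mean over the 9 arrays is the reference probe set. Levels of different probe sets are not comparable with each other. In whole tissue, fewer cells of a type and less RNA per cell cannot be told apart.

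Array medians lay between 80.9 and 83.4 in linear intensity. Nr2f2 checked the labels: its reference probe set gave 6.62 to 6.82 in mutant atria, 7.29 to 7.66 in control atria and 5.34 to 5.96 in ventricles. It was lower in mutant than in control atria by a log2 difference of -0.74 ± 0.15 (limma adjusted p = 0.0113), and 4 of its 6 probe sets fell. The 3 control atria carried hepatocyte transcripts at levels that neither of the other groups reached. Their summed level over 6 markers was 13.87, 13.10 and 11.12 in control atrium replicates 1, 2 and 3, against 7.83 to 7.999 in ventricles and 7.90 to 7.995 in mutant atria. All 6 markers were lower in both other groups, where albumin (Alb) was near background at 4.95 ± 0.27 and 5.15 ± 0.20. The part of this in the results below was not tested.

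The 10 genes fell into groups by pattern of level. Dusp6 and 1 probe set of Spry4 lay above both control tissues in the mutant atrium, as Etv5 did, and 3 of 8 probe sets of Spred1 did so too. Fgf1, Spry1 and Etv4 were higher in the mutant than in the control atrium, and all 3 were higher in the ventricle than in the control atrium as well. Fgfr1 was higher in both atria than in the ventricle and was not called between the atria. Spry2 differed by small amounts, and Fgf2 was near background in every group.

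**Figure D1:**
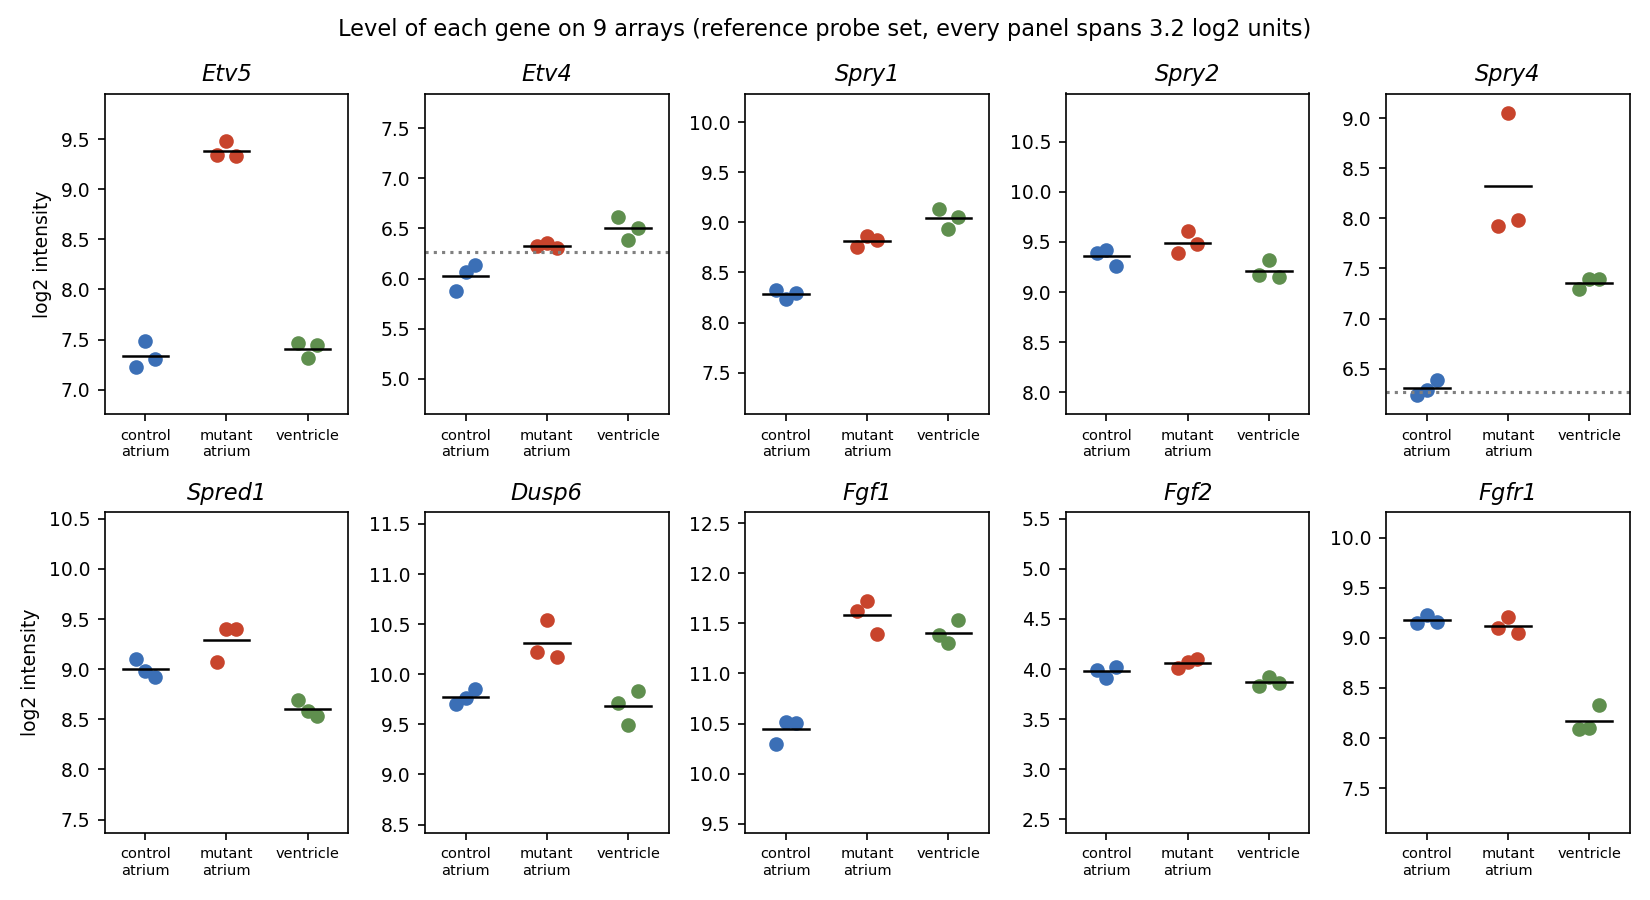
Level of the 10 genes on each array, one panel per gene, with log2 intensity on the y axis and the 3 groups on the x axis. Points are arrays in the order of replicate number, lines are group means, every panel spans the same number of log2 units and the dotted line, where drawn, is the background level of 6.26. Etv5 in the mutant atria lies between 9.33 and 9.48, above all control arrays, while Fgf1 in the mutant atria overlaps the ventricles and Fgfr1 the control atria.

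Etv5 encodes an ETS transcription factor of the PEA3 group, whose transcription follows FGF and ERK signals in many developing tissues. The reference probe set 1428142_at gave 9.34, 9.48 and 9.33 in mutant atria, 7.22, 7.49 and 7.31 in control atria and 7.47, 7.32 and 7.44 in ventricles. All mutant arrays were high, and the control groups overlapped each other. The mutant mean of 9.38 ± 0.09 (n = 3) stood 4.12-fold above the control atrium (7.34 ± 0.13) and 3.92-fold above the ventricle (7.41 ± 0.08), log2 differences of 2.04 ± 0.09 and 1.97 ± 0.09.

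The second probe set of Etv5, 1450082_s_at, gave 6.62, 6.90 and 6.76 in mutant atria, 5.43, 5.19 and 5.30 in control atria and 5.71, 5.25 and 5.14 in ventricles. It was thus above background in the mutant atria and near background in both control tissues. The third, 1420998_at, was near background on every array, at 5.27 to 5.61 in mutant atria, 4.61 to 4.80 in control atria and 4.79 to 5.01 in ventricles. In all 3 probe sets every mutant array lay above all 6 control arrays.

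Ventricle and control atrium were compared with a test, since that contrast did not choose Etv5. The ventricle differed from the control atrium in Etv5 by 0.07 ± 0.09 (limma adjusted p = 0.519), with a 95% confidence interval of -0.12 to 0.26. The other probe sets gave 0.06 (adjusted p = 0.735) and 0.17 (adjusted p = 0.19). Between both control tissues no difference in Etv5 was called.

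Promoter sequences are shown for the genes whose mutant arrays lay above all control arrays in at least 1 probe set and for which RefSeq gave a window, namely Etv5 (2 start sites), Dusp6 and Spred1. They are the 250 bases before the annotated start in the mouse build GRCm38.p6, written 5' to 3' on the strand of the gene, with capitals at GC boxes (GGGCGG on either strand).
Etv5 first start, chr16:22439571-22439820, minus strand: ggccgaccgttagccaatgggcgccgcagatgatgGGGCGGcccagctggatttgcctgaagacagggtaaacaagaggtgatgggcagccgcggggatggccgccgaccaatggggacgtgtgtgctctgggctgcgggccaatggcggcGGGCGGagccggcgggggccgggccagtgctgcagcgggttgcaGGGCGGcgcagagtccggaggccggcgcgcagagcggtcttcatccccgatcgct
Etv5 second start, chr16:22438369-22438618, minus strand: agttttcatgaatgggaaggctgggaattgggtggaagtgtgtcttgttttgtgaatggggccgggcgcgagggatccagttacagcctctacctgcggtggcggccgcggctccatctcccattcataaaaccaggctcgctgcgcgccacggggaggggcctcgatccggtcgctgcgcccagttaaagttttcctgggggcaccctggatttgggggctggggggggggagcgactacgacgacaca
Dusp6, chr10:99262981-99263230, plus strand: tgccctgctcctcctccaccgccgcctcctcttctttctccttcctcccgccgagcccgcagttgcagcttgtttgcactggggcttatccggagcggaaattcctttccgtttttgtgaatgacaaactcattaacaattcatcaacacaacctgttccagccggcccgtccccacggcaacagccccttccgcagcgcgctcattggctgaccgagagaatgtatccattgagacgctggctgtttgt
Spred1, chr2:117120821-117121070, plus strand: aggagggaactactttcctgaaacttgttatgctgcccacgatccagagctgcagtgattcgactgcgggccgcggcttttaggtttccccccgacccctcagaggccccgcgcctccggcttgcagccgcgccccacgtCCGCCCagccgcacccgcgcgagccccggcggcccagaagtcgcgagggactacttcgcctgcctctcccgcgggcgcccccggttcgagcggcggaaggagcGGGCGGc

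Windows were at hand for 6 of the 10 genes, the others being Spry1, Spry2 and Fgf2. The GC box was found 3 times at the first start of Etv5 and 2 times at Spred1, and not at Dusp6 or at the second start of Etv5. Among the 6 genes 4 held it, against 32.7% of all 32817 promoter windows of that length. Here and below, a gene was counted if any of its windows held the motif, and Etv5 had 2 windows. Counts of genes and shares of windows thus differ in unit. The hexamer CCGGAA, a longer form of the ETS core GGAA, was searched on both strands. It stood in 0 of the 6 genes and in 12% of all windows. The shorter GGAA was not counted, and it does occur in windows printed above, such as that of Dusp6. The hexamer AGGTCA, a half-site bound by many nuclear receptors, stood in 0 of 6 and in 14% of all windows. TGACG, a half-site of the cyclic AMP response element, stood in 1 of 6, Fgf2, and in 17.7% of all windows. TGACG and the reverse complement of AGGTCA share the letters TGAC, and the other motifs were searched apart from them. A match is a description only.

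Etv4, the closest relative of Etv5 in the set, was dim and behaved otherwise. Its reference probe set 1423232_at gave 6.33, 6.35 and 6.30 in mutant atria, 5.87, 6.06 and 6.13 in control atria and 6.62, 6.38 and 6.50 in ventricles. The mutant arrays lay above the control atria and below the ventricles without overlap, and the control atria were near background. The difference from the control atrium was 0.30 ± 0.09 (limma adjusted p = 0.0441). That call was lost in 11 of 19 alternatives that keep the threshold, among them leaving out any of the 3 mutant arrays, control atrium replicate 1 (adjusted p = 0.136) or control atrium replicate 2. The difference from the ventricle was -0.17 ± 0.09 (adjusted p = 0.166; 95% interval -0.37 to 0.02), and the ventricle was higher than the control atrium by 0.48 ± 0.09 (adjusted p = 0.00157). The other probe set of Etv4 was near background in all groups and passed in no comparison.

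Dusp6, a cytoplasmic phosphatase that removes the activating phosphates of ERK, had the highest correlation with Etv5 over the 9 arrays among the inhibitors of the set. Inhibitors outside the set were not ranked in this way. It gave 10.22, 10.54 and 10.17 in mutant atria, 9.70, 9.77 and 9.85 in control atria and 9.72, 9.49 and 9.83 in ventricles. Every mutant array lay above all 6 control arrays, and the control groups overlapped. Dusp6 rose 1.45-fold over the control atrium (0.54 ± 0.12, limma adjusted p = 0.0137) and 1.55-fold over the ventricle (0.63 ± 0.12, adjusted p = 0.00275). The ventricle differed from the control atrium by -0.09 ± 0.12 (adjusted p = 0.519; 95% interval -0.35 to 0.16). Without control atrium replicate 1, the call against the control atrium was lost, at 0.50 ± 0.13 (adjusted p = 0.0531).

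Spry4 is one of the Sprouty proteins, which hold back the signal between receptor and RAF. Its reference probe set 1445669_at gave 7.92, 9.05 and 7.98 in mutant atria, 6.24, 6.28 and 6.38 in control atria and 7.30, 7.39 and 7.39 in ventricles. No group overlapped another, and mutant replicate 2 stood more than a log2 unit above the other mutants. Spry4 by this probe set was 4.04-fold higher in the mutant than in the control atrium (2.02 ± 0.24, limma adjusted p = 0.000674) and 1.94-fold higher than in the ventricle (0.96 ± 0.24, adjusted p = 0.0153). Without mutant replicate 2 the difference from the ventricle was 0.59 (adjusted p = 0.000792). The ventricle was above the control atrium by 1.06 ± 0.24 (adjusted p = 0.00577).

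A second probe set of Spry4, 1440867_at, agreed in part. It gave 6.81, 7.11 and 6.81 in mutant atria, 6.05, 6.01 and 6.35 in control atria and 6.82, 6.98 and 6.73 in ventricles. Mutant atria and ventricles overlapped here, and both lay above the control atria. The mutant was higher than the control atrium by 0.77 ± 0.12 (limma adjusted p = 0.00254), but its difference from the ventricle was 0.07 ± 0.12 (adjusted p = 0.698; 95% interval -0.19 to 0.34). The remaining probe sets of Spry4 were near background in all groups, between 4.34 and 4.84, and passed in no comparison. Of the 2 probe sets of Spry4 above background, both rose over the control atrium and 1 exceeded the ventricle.

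Spred1, which binds the RAS inhibitor neurofibromin and brings it to the membrane, had 8 probe sets. The reference 1423160_at gave 9.07, 9.41 and 9.40 in mutant atria, 9.11, 8.98 and 8.92 in control atria and 8.69, 8.58 and 8.53 in ventricles. Mutant replicate 1 lay within the control atria, and both kinds of atria lay above the ventricles. The mutant differed from the control atrium by 0.29 ± 0.10 (limma adjusted p = 0.0883; 95% interval 0.06 to 0.51), which passed the threshold without mutant replicate 1 (0.40, adjusted p = 0.0166). It was higher than the ventricle by 0.69 ± 0.10 (adjusted p = 0.000747), and the ventricle was below the control atrium by a difference of -0.40 ± 0.10 (adjusted p = 0.00927).

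In Spred1 probe set 1452911_at, the mutant atria gave 6.97, 6.90 and 6.90, the control atria 6.58, 6.50 and 6.12 and the ventricles 6.11, 5.77 and 6.06. In 1460116_s_at, the mutant atria gave 7.86, 8.10 and 7.999, the control atria 7.75, 7.65 and 7.51 and the ventricles 7.12, 6.91 and 6.87. Mutant arrays lay above all control arrays in both of these and in 1428777_at. Over all 8 probe sets the difference from the control atrium lay between 0.18 and 0.52, with 3 past the threshold. These 3 were 1443652_x_at, 1452911_at and 1460116_s_at, with limma adjusted p between 0.0237 and 0.0394, and each was lost without some single array: all 3 without mutant replicate 2 (adjusted p = 0.0692, 0.0638 and 0.133) and all 3 without mutant replicate 3 (adjusted p = 0.0586, 0.0606 and 0.106). With the replicate number as a block, 1443652_x_at (adjusted p = 0.0518) and 1460116_s_at (adjusted p = 0.0588) were not called. Against the ventricle 6 of 8 passed, all higher in the mutant, up to 1.02 ± 0.10 in 1460116_s_at (adjusted p = 5.51e-05). Probe sets of 1 gene read the same RNA samples and are not replicates of each other.

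Spry1, a Sprouty inhibitor like Spry4, has a single probe set here. It gave 8.75, 8.86 and 8.82 in mutant atria, 8.33, 8.24 and 8.29 in control atria and 9.13, 8.93 and 9.05 in ventricles. The groups did not overlap, and the mutant atria lay between the other two groups. Spry1 rose 1.44-fold over the control atrium (0.53 ± 0.07, limma adjusted p = 0.00135) and was 1.69-fold higher in the ventricle than in the control atrium (0.76 ± 0.07, adjusted p = 2.57e-05). Against the ventricle the mutant was lower by a difference of -0.23 ± 0.07 (adjusted p = 0.037), a call lost in 8 of 19 alternatives. These included leaving out any mutant array, control atrium replicate 2, ventricle replicate 1 or ventricle replicate 3 (adjusted p between 0.0503 and 0.112) and the replicate block (adjusted p = 0.0627).

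Spry2, the Sprouty gene that differed least between the atria by reference probe set, was not called there. Its reference probe set 1436584_at gave 9.39, 9.61 and 9.48 in mutant atria, 9.39, 9.42 and 9.26 in control atria and 9.17, 9.32 and 9.15 in ventricles. Mutant and control atria overlapped, and the mutant arrays lay above the ventricles. The difference from the control atrium was 0.13 ± 0.08 (limma adjusted p = 0.312; 95% interval -0.05 to 0.32). Against the ventricle it was 0.28 ± 0.08 (adjusted p = 0.0306), and this was lost without mutant replicate 2 (adjusted p = 0.111), mutant replicate 3 (adjusted p = 0.0739), ventricle replicate 1 (adjusted p = 0.0844) or ventricle replicate 3 (adjusted p = 0.0884). The other probe set, at 6.09 to 6.70 over all arrays, passed in no comparison.

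Among the ligands, Fgf1, a growth factor without a signal peptide that binds every FGF receptor, overlapped between mutant atrium and ventricle. Probe set 1423136_at gave 11.62, 11.72 and 11.39 in mutant atria, 10.30, 10.52 and 10.51 in control atria and 11.38, 11.31 and 11.53 in ventricles. Mutant atria and ventricles overlapped, and each lay above all control atria. Fgf1 rose 2.20-fold over the control atrium (1.14 ± 0.10, limma adjusted p = 0.000129), and the ventricle exceeded the control atrium 1.95-fold (0.96 ± 0.10, adjusted p = 6.27e-05). Between mutant atrium and ventricle the difference was 0.17 ± 0.10 (adjusted p = 0.25; 95% interval -0.06 to 0.40).

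In the other probe sets of Fgf1, too, mutant atria and ventricles overlapped and lay above the control atria. In 1450869_at the mutant atria gave 9.58, 9.70 and 9.48, the control atria 8.50, 8.39 and 8.43 and the ventricles 9.55, 9.58 and 9.88. In 1441042_at they gave 9.11, 9.04 and 8.62, against 8.21, 8.08 and 7.999 in control atria and 8.80, 9.02 and 8.73 in ventricles. Both rose over the control atrium, by 1.14 ± 0.10 (limma adjusted p = 8.85e-05) and 0.83 ± 0.13 (adjusted p = 0.00312), and neither was called against the ventricle (-0.08 ± 0.10 and 0.07 ± 0.13).

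Fgf2, a ligand made by many cell types of the heart and likewise without a signal peptide, was not measured well. Its only probe set lay near background on all arrays, at 4.01 to 4.10 in mutant atria, 3.91 to 4.03 in control atria and 3.83 to 3.92 in ventricles. Its difference from the ventricle, 0.19 ± 0.06, had a limma adjusted p of 0.04998 and was lost in 14 of 18 alternatives, among them leaving out any of the 9 arrays.

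Fgfr1 encodes the receptor that binds Fgf1 and Fgf2 in cardiac muscle and fibroblasts. Its reference probe set 1424050_s_at gave 9.10, 9.21 and 9.05 in mutant atria, 9.15, 9.22 and 9.15 in control atria and 8.09, 8.10 and 8.33 in ventricles. The atria of both genotypes overlapped, and all lay above the ventricles. The mutant differed from the control atrium by -0.06 ± 0.08 (limma adjusted p = 0.684; 95% interval -0.24 to 0.13), was 1.93-fold higher than the ventricle (0.95 ± 0.08, adjusted p = 3.1e-05), and the ventricle was 2.00-fold below the control atrium (-1.003 ± 0.08, adjusted p = 1.03e-05). Probe set 1436551_at gave the same order with a smaller gap, 0.38 over the ventricle (adjusted p = 0.0102) and -0.01 between the atria (adjusted p = 0.969).

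**Figure D2:**
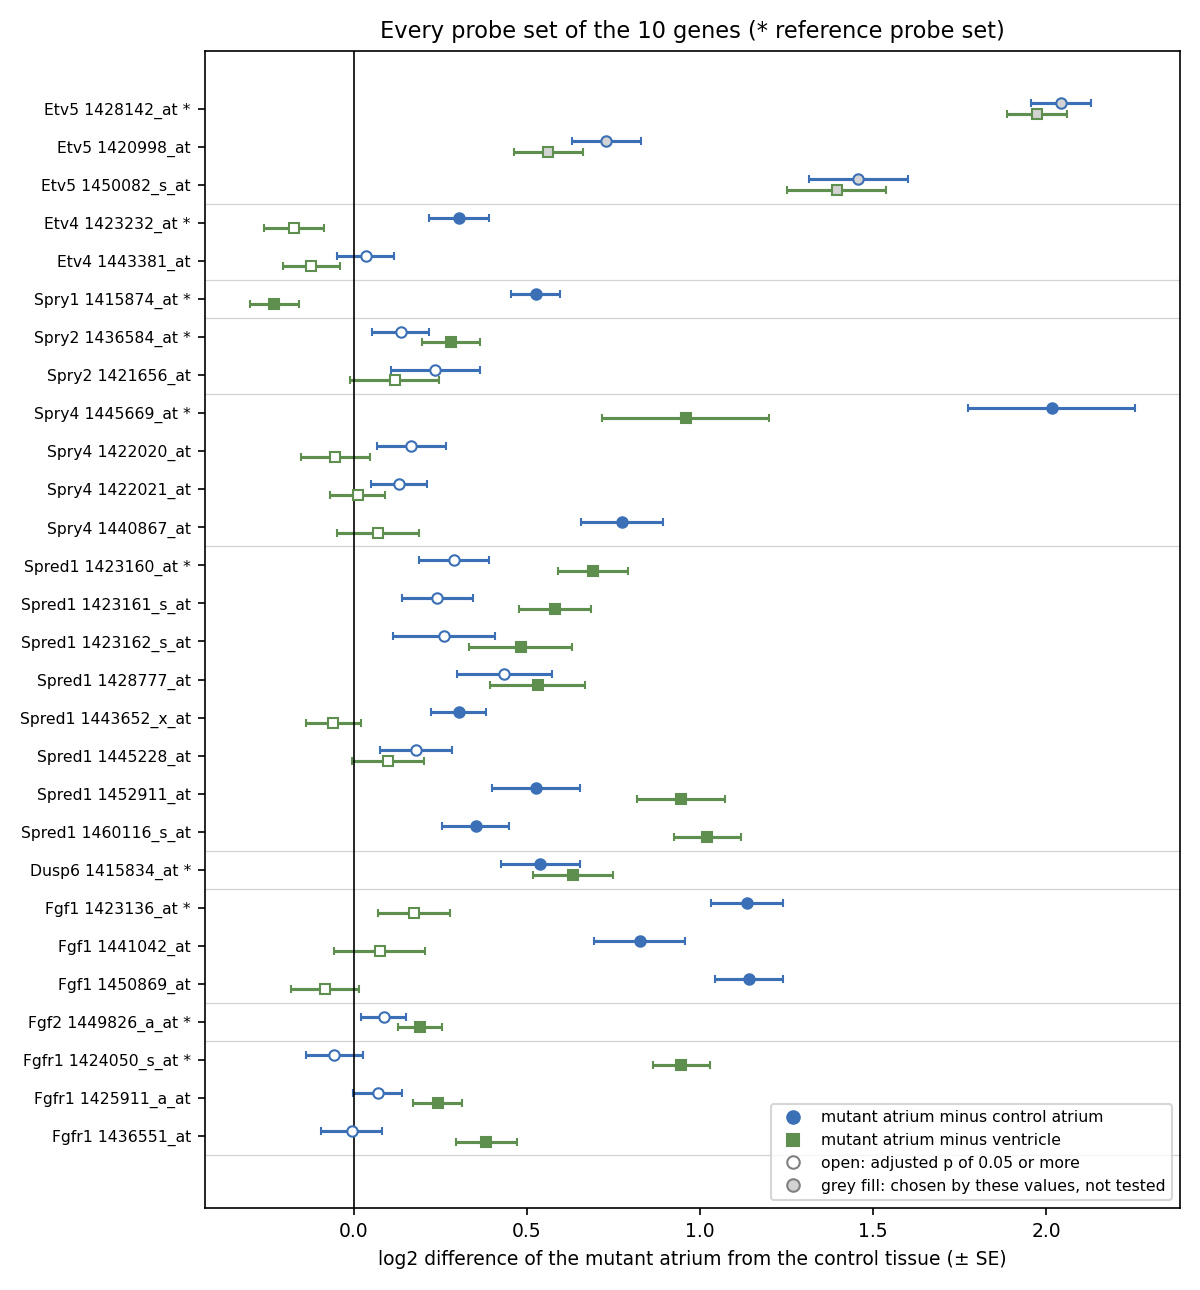
Log2 difference of the mutant atrium from the control atrium (circles) and from the ventricle (squares), with SE bars, for each of the 28 probe sets on the y axis. Filled symbols passed a limma adjusted p of 0.05, open ones did not, and grey ones belong to Etv5, which was not tested. Of the other 25 probe sets, 11 lie to the right of 0 with a filled circle and 0 to the left.

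Counted over the 25 probe sets other than those of Etv5, 11 were higher in the mutant than in the control atrium, 0 were lower and 14 did not pass. Over all 34945 probe sets, 13.9% were called, 5.86% higher and 8.05% lower. The median difference of the 25 was 0.29, against 0.02 over all probe sets. By gene and reference probe set, 5 of 9 rose (Etv4, Spry1, Spry4, Dusp6 and Fgf1), 0 fell and 4 did not pass, against 6.92% higher and 8.99% lower (15.9% in all) among the 18193 genes. The calls of Etv4 and Dusp6 were lost in 11 of 19 and 1 of 19 alternatives. Arrays of mutant and control atria did not overlap in 13 of the 25 probe sets, against 34.3% of all. The count of 11 became 7 without mutant replicate 2 or without mutant replicate 3. With the replicate block it was 8.

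Against the ventricle 13 of the 25 probe sets were higher in the mutant atrium, 1 was lower and 11 did not pass, while 27.5% of all probe sets were called, 13.4% higher and 14.1% lower. By gene, Spry2, Spry4, Spred1, Dusp6, Fgfr1 and Fgf2 were higher, Spry1 was lower, and Etv4 and Fgf1 did not pass, against 15.4% higher and 15.6% lower (31% in all) among all genes. The calls of Fgf2 (near background in every group), Spry2 and Spry1 were lost in 14 of 18, 6 of 19 and 8 of 19 alternatives. Arrays of mutant atria and ventricles did not overlap in 15 of the 25, against 43.3% of all probe sets. The called count of 14 became 9 without mutant replicate 2 or 3 and 8 without ventricle replicate 3. Between ventricle and control atrium, where Etv5 entered too, 8 of 28 probe sets were higher in the ventricle and 6 were lower, against 25.7% and 21.5% of all probe sets and 47.2% in either direction. Etv4, Spry1, Spry4 and Fgf1 were the genes higher in the ventricle by reference probe set, and Spred1 and Fgfr1 were lower there, against 28.2% higher and 23.1% lower (51.3% in all) among all genes. Arrays of both control tissues did not overlap in 15 of the 28, against 55.6% of all probe sets. These 3 comparisons share samples and are given side by side only.

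All 3 mutant arrays lay above all 6 control arrays in 5 of the 25 probe sets other than those of Etv5, and below all 6 in 0. Over all probe sets the share above was 3.39%. The 5 were those of Dusp6, Spry4 and Spred1 named above. The count was 8 after quantile normalisation or median centring, 9 without mutant replicate 1 and 8 without mutant replicate 3. Leaving out an array can only keep or raise this count. The share over all probe sets is not given for these settings, so the rises are not read as a result. Within the mutant group, replicate 2 held the highest value in 17 of the 28 probe sets, whereas over all probe sets it held it in 31.7%. By reference probe set it held it in 9 of the 10 genes.

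The wider pathway was described with 8 lists, of which 92 of 102 genes were measured, each by its reference probe set. In the mutant against the control atrium 11 rose, 10 fell and 71 did not pass, with a median difference of 0.03, against 6.92% higher and 8.99% lower among all genes. Members of the set above are not counted among them. The rises were spread over ligands (4 of 16, of which 1 was near background in every group), inhibitors (3 of 14), ERK target genes (2 of 12), receptors and coreceptors (1 of 14) and FGF homologous factors (1 of 4). None of 14 relay genes between receptor and ERK rose, and 2 fell. Among 12 further ETS factors 0 rose and 0 fell, and likewise among 6 further genes of the Dusp family. Against the ventricle, 26 of the 92 were higher in the mutant atrium and 9 lower, with 7 of 14 inhibitors higher and 0 lower, against 15.4% higher and 15.6% lower among all genes. Between ventricle and control atrium, 23 were higher in the ventricle and 31 lower, against 28.2% and 23.1% of all genes. There 10 of 16 ligands were higher, 5 of them near background in every group, and 6 of 14 inhibitors were lower, 1 of them near background.

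Dusp4 and Spred2 had the largest rises among the inhibitors outside the set. Dusp4, a nuclear phosphatase of ERK and related kinases, gave 9.20, 8.63 and 8.80 in mutant atria, 7.38, 7.28 and 7.48 in control atria and 5.95, 6.91 and 6.42 in ventricles. Spred2, a relative of Spred1, gave 9.89, 10.09 and 10.01, against 9.43, 9.47 and 9.37 in control atria and 9.58, 9.47 and 9.66 in ventricles. Mutant arrays of both genes lay above all control arrays. Dusp4 rose 2.83-fold over the control atrium (1.499 ± 0.22, limma adjusted p = 0.00193) and 5.47-fold over the ventricle (2.45 ± 0.22, adjusted p = 3.55e-05), and Spred2 rose 1.49-fold over the control atrium (0.57 ± 0.08, adjusted p = 0.00131). Lrig1, which promotes the breakdown of receptor tyrosine kinases, fell by 0.54 on the log2 scale (adjusted p = 0.00538). Of the 14 inhibitors, 6 had all mutant arrays above all control arrays, against 4.04% of all reference probe sets. The 6 were Dusp4, Spred2, Errfi1, Cbl, Nf1 and Rasa1, and the last 4 are named after their values were seen. Only 3 of the 14 passed as higher than the control atrium, Dusp4 and Spred2 among them, so most of the last 4 did not. The inhibitors had the highest such count of the lists. Over all lists, 10 of 92 genes lay above all control arrays and 2 below (Fgfr3 and Dusp22). Outside the inhibitors, those above were 2 of 14 receptors and coreceptors, 1 of 16 ligands and 1 of 12 ERK target genes. Every other list had 0 above.

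Among ERK target genes the largest change was that of Phlda1, a pleckstrin-homology protein induced by growth factors. It gave 10.86, 12.15 and 11.91 in mutant atria, 8.16, 8.37 and 8.76 in control atria and 10.04, 9.90 and 9.92 in ventricles. The groups did not overlap, with the ventricle between the atria. Phlda1 rose 9.24-fold over the control atrium (3.21 ± 0.28, limma adjusted p = 0.000102) and 3.22-fold over the ventricle (1.69 ± 0.28, adjusted p = 0.00175). Hbegf, a ligand of the EGF receptor, rose 1.91-fold over the control atrium (0.93 ± 0.12, adjusted p = 0.00107), and the ventricle exceeded the control atrium by the same 0.93 ± 0.12 (adjusted p = 0.000214). Epha4, a receptor of ephrins, fell by 0.77 on the log2 scale (adjusted p = 0.00954). The other 9 of the 12 did not pass between the atria, Fos and Egr1 among them. Fos gave 8.42, 7.62 and 10.14 in mutant atria and 8.98, 9.91 and 8.97 in control atria. Egr1 gave 10.20, 9.33 and 10.10 in mutant atria and 9.67, 10.28 and 10.09 in control atria. In the ventricle both were below the control atrium, by differences of -2.31 ± 0.52 (adjusted p = 0.00545) and -1.33 ± 0.25 (adjusted p = 0.00191).

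Fgf16, a ligand of cardiac muscle, was also higher in the mutant than in the control atrium. It gave 7.32, 8.28 and 7.86 in mutant atria, 5.14, 5.91 and 5.33 in control atria and 8.11, 8.06 and 7.70 in ventricles, so that it was near background in control atria and overlapped between mutant atria and ventricles. Counted from the background level, Fgf16 was at least 2.95-fold higher in the mutant than in the control atrium (measured difference 2.36 ± 0.25, limma adjusted p = 0.000318) and at least 3.23-fold higher in the ventricle (2.49 ± 0.25, adjusted p = 3.89e-05). Fgf9, a ligand of the epicardium and endocardium, rose by 0.49 ± 0.08 over the control atrium (adjusted p = 0.00437) and stayed below the ventricle by a difference of -0.56 ± 0.08 (adjusted p = 0.000769). Fgf7, made by fibroblasts for epithelial receptors, was near background in the ventricle (5.88). Counted from the background level it was at least 5.94-fold higher in the mutant atrium (measured difference 2.95 ± 0.26, adjusted p = 3.45e-05) and at least 6.30-fold higher in the control atrium (adjusted p = 1.39e-05) than there.

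Of 14 receptors and coreceptors, 4 fell and 1 rose. Flrt1, a membrane protein that binds FGF receptors, fell 2.31-fold from the control to the mutant atrium (-1.21 ± 0.11, limma adjusted p = 9.64e-05), and Fgfr3 fell 1.83-fold (-0.87 ± 0.17, adjusted p = 0.00863). Sulf2, which trims heparan sulfate, was higher by 0.27 ± 0.07 (adjusted p = 0.0361), a call lost without mutant replicate 2 or 3 or control atrium replicate 1 or 2 (adjusted p up to 0.129). In the relay, the phosphatase Ptpn11 fell by 0.48 on the log2 scale (adjusted p = 0.0213) and the RAS activator Sos1 by 0.33 (adjusted p = 0.0117). The call of Ptpn11 was lost without mutant replicate 1 or 2 or control atrium replicate 2 or 3 (adjusted p up to 0.0808), and that of Sos1 without mutant replicate 2 (adjusted p = 0.0522). The FGF homologous factors, which stay in the cell and modulate sodium channels, split: Fgf13 rose by 0.69 ± 0.08 (adjusted p = 0.000437), while Fgf12 fell by 1.37 on the log2 scale (adjusted p = 0.011) and Fgf11 by 0.48 (adjusted p = 0.00361).

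**Figure D3:**
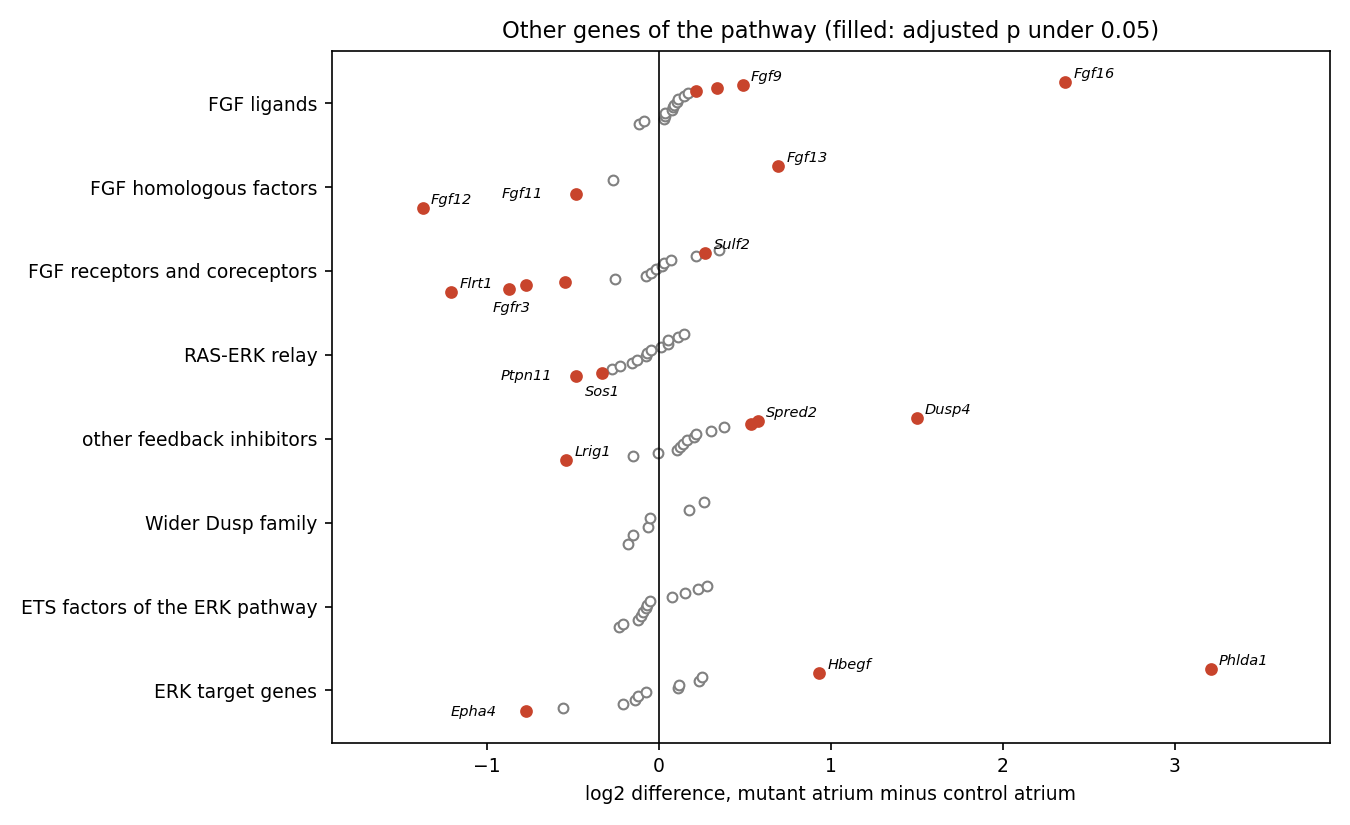
Log2 difference of the mutant from the control atrium for 92 genes of the pathway outside the set, by list, each by its reference probe set. Filled points passed a limma adjusted p of 0.05. Names mark, in each list, up to 2 genes with the largest rise and up to 2 with the largest fall among these. Phlda1 at 3.21, Fgf16 at 2.36 and Dusp4 at 1.499 lie farthest to the right and Fgf12 at -1.37 farthest to the left.

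The genes most like Etv5 were sought over the 9 arrays by Pearson's correlation of log2 levels, among 4148 probe sets with a mean of at least 6 and a range of at least 1. The arrays form 3 groups, so that any gene high in the mutant only will score, and the values describe the pattern. The minimum range can likewise be met through a high level in the mutant only, as by Dusp6 with a range of 1.05. The places given below are thus a description and no support for a likeness. The 6 highest were Drd2 (a dopamine receptor, r = 0.996), Fbn2 (a fibrillin, 0.988), Slit2 (a guidance ligand, 0.987), Exoc3l4 (0.981), Slc16a12 (a carrier, 0.977) and Lipa (lysosomal acid lipase, 0.975). Drd2 gave 10.12, 9.99 and 9.75 in mutant atria, against 6.72 to 6.76 in control atria and 6.73 to 7.01 in ventricles. Like Etv5, it was high on the mutant arrays only. In all, 69 probe sets had r over 0.9. Among members that met both minimums, Dusp6 came closest (0.915, place 52 of 4148), followed by Spred1 1452911_at (0.830), Spry4 1445669_at (0.825), Spred1 1460116_s_at (0.726) and Fgf1 1423136_at (0.636). Members with a smaller range or level reached up to 0.781 in Spred1 1428777_at, with 0.745 in the reference probe set of Spred1, 0.697 in that of Spry2 and 0.693 in Fgf2. Fgfr1 (0.429), Spry1 (0.249) and Etv4 (0.192) were far from it. By Spearman's rank correlation 0 of the 6 genes stayed among the 6 highest.

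Markers of other cell types moved with the groups. Mesothelial markers fell in the mutant against the control atrium in 8 of 8 genes, from a summed level of 12.91 to 13.21 to one of 11.31 to 11.54, and lay at 9.67 to 10.003 in ventricles. Smooth muscle and pericyte markers had a summed level that went from control atria (12.97 to 13.17) through mutant atria (13.54 to 13.76) to ventricles (13.93 to 14.33), with 5 of 7 higher and 1 (Cnn1) lower in the mutant against the control atrium. Spry1 had the same order of groups, and Fgf1 likewise was lowest in control atria. Macrophage markers were higher in mutant atria (13.13 to 13.58, 4 of 6 genes) than in control atria (12.88 to 12.95) or ventricles (12.05 to 12.43). Etv5 and Dusp6 likewise had their highest level in mutant atria, though their arrays overlapped between control atria and ventricles.

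Fibroblast markers lay at 15.65 to 15.72 in mutant atria, 15.44 to 15.55 in control atria and 14.72 to 14.86 in ventricles. Their sum was thus also highest in mutant atria, and 1 of 7 passed between the atria. Endocardial markers lay at 12.22 to 12.86, 12.84 to 12.93 and 9.43 to 9.52, and endothelial ones at 13.47 to 13.83, 13.84 to 14.002 and 12.53 to 12.72, both highest in atria, as Fgfr1 was. Cardiomyocyte markers were high in every group, at 17.19 to 17.22, 17.08 to 17.12 and 17.19 to 17.22. Markers of adipocytes (6.44 to 8.41 in the control and 5.87 to 6.29 in the mutant group), of lymphocytes (8.04 to 8.30 and 8.27 to 8.48) and of Schwann cells and neurons (7.88 to 7.99 and 8.06 to 8.13) were low in sum. The part of these cell types in the levels of the 10 genes was not tested. The 3' to 5' difference of Gapdh, a sign of RNA quality, lay between 0.153 and 0.227 in ventricles, 0.214 and 0.304 in mutant atria, and 0.345 and 0.364 in control atria. That of Actb was larger, between 1.26 and 1.37 in ventricles, 1.28 and 1.38 in mutant atria, and 1.39 and 1.49 in control atria. Both were highest in control atria, and the part of RNA quality was not tested.

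**Figure D4:**
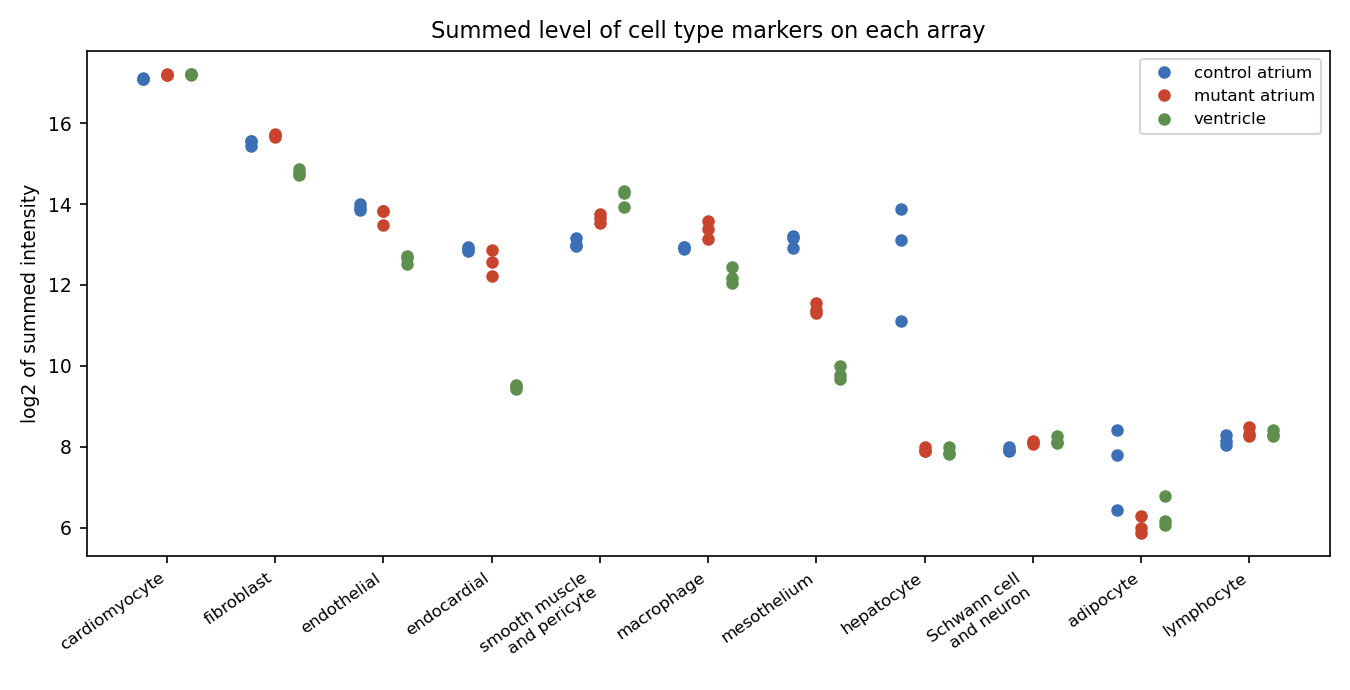
Summed level of the measured markers of each cell type (log2 of the summed linear intensity, y axis) on each of the 9 arrays, by cell type on the x axis and coloured by group. Hepatocyte markers lie at 11.12 to 13.87 in control atria and at 7.83 to 7.999 in the other groups, and macrophage markers are highest in mutant atria.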

How the data were processed

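Total RNA was labelled by 3' in vitro transcription, per the labels' protocols. The deposited values are linear intensity per probe set, made by the authors with RMA, per the submitters' processing notes (version not given in the sources used here). They were put on the log2 scale and not normalised again. The table holds 45101 probe sets. Those left out were 64 controls, 932 matched to more than 1 gene and 9160 unnamed ones. A limma 3.58.1 model (lmFit and eBayes, R 4.3.3) with a mean per group was fitted to all 9 arrays, with 6 residual and 3.83 prior degrees of freedom, and tested 2-sided. The members and gene lists were chosen with earlier results of these data known. Named pathway genes were up to 2 with the largest rise and up to 2 with the largest fall past the threshold in each list and comparison. Markers of cell types were summed on the linear scale. The main fit did not pair samples by replicate number, since the labels do not say whether same-numbered samples share an animal. Deviations of same-numbered arrays from their group means correlated at -0.096 to 0.111 and those of others at -0.154 to 0.125. With 3 arrays per group these values cannot decide the question. Alternatives, whose effect the closing section gives, were the replicate block, an intensity trend with robust variance, quantile normalisation, median centring, leaving out the 40% dimmest probe sets, all probe sets that are not controls, 1 probe set per gene, a fit of 2 groups, array weights, an offset of 32, stricter thresholds and leaving out each array. On simulated data, 58 of 100 probe sets changed 1.5-fold and 92 of 100 changed 2-fold between mutant and control atrium were recovered among 34945, with 3 false calls of 153. Arrays have no read depth, and their number limits the precision. Promoter windows are RefSeq's (GRCm38.p6). Python 3.11.15, pandas 2.3.3 and matplotlib 3.10.9 drew the figures.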

Additional observations from a re-analysis of the deposited data

How the results depend on the processing

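Of the differences of members, named pathway genes and Nr2f2, 0 of 106 past the threshold changed sign, and 13 of 45 others, all of members, crossed 0 in some alternative. Counts over all probe sets were 4861 for the mutant against the control atrium, 9612 for the mutant against the ventricle and 16492 for the ventricle against the control atrium, and 11, 14 and 14 over member probe sets. With 1 probe set per gene they were 3192, 5956 and 9615, and 5, 7 and 6 for members. At an adjusted p of 0.01 they were 1958, 5485 and 10405, with 6 and 6 members in both mutant comparisons. With at least a 1.5-fold difference they were 1591, 3362 and 5372, and 5, 6 and 8. With the replicate block they were 4226, 8938 and 15750, and 8, 11 and 14. Leaving out 1 array gave 2714 to 4645, 7219 to 9657 and 12920 to 16299 over all probe sets, and 7 to 12, 8 to 13 and 12 to 15 over members. Median centring split the calls against the ventricle into 4111 higher and 6630 lower (4684 and 4928 otherwise), and those of the ventricle against the control atrium into 12300 and 6250 (8971 and 7521 otherwise). The other alternatives named under the processing, including that one, gave 4336 to 7005, 8636 to 10993 and 12097 to 20054 over all probe sets, and 10 to 13, 10 to 13 and 14 to 16 over members, with 7005 and 13 for the mutant against the control atrium under array weights. The cause of these shifts was not tested, apart from the stricter thresholds, which by construction call fewer. Alternatives for the named pathway genes, for Nr2f2 and for the count above all control arrays were chosen after seeing the data. Levels near background limit Fgf2, Etv4 and the dimmer probe sets of Etv5, Spry4, Spred1 and Fgfr1.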
